A study of Mus musculus with 6 samples.

Results

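The p53 target genes considered here are 10 named genes, and each was measured by every probe set that the array annotation assigns to that gene alone. On these arrays several short probes together read each transcript and form a probe set. Of the 10 genes, 8 had such probe sets, 16 in all out of 45037 on the array: Cdkn1a (2), Btg2 (2), Mdm2 (3), Ccng1 (3), Phlda3 (1), Eda2r (1), Trp53inp1 (2) and Sesn2 (2). Bax and Gdf15 were not analysed here, since the annotation used assigns no probe set to either of them, and the same holds for the gene of p53 itself. The livers came from male A/J-12SM mice, a consomic strain in which chromosome 12 of SM/J replaces that of the A/J background, and from male A/J mice, which share the rest of the genome, so that the strains differ by a whole chromosome and not by 1 gene. Mice of both strains ate a high-fat diet for 7 weeks, between 6 and 13 weeks of age, and were killed after a 4-h fast. There were 3 Affymetrix arrays from A/J-12SM and 3 from A/J mice, each hybridized with RNA pooled from 3 mice, so that a replicate is a pool and not an animal. None of the 8 genes lies on chromosome 12.

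p53 is a transcription factor that cells keep at a low level and stabilise when DNA is damaged or growth is disturbed. Its targets stop the cell cycle, repair DNA, restrain growth signals or start cell death, and some of them, such as Mdm2, act back on p53 and limit the response. In liver the pathway is known from toxic injury, regeneration and fatty liver disease. Several of the targets also answer to other signals. Sesn2 is induced by the amino acid and endoplasmic reticulum stress factor ATF4, and Btg2 is an immediate early gene of growth factor signalling.

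All 8 genes had lower values in A/J-12SM than in A/J liver by their brightest probe set, with a median log2 difference (A/J-12SM minus A/J) of -0.37. Of all 18193 named genes 50.9% had a lower value, and their median difference was -0.01. The differences ran from -1.34 for Eda2r, measured near the lower end of the signal range, through -0.72 for Phlda3 and -0.68 for Cdkn1a, to -0.08 for Sesn2. No single gene passed the test: 0 of 8 had an adjusted p under 0.05 in limma, which borrows information on spread across probe sets of similar signal, against 0.0660% of all genes. At an unadjusted p under 0.05 in limma there were 4 of 8 lower genes (Cdkn1a, Mdm2, Phlda3 and Trp53inp1) and no higher one, where 3.40% of all genes were lower and 3.39% higher at that level. In 2 of the 8 genes, Cdkn1a and Mdm2, every A/J-12SM array lay below every A/J array, where 6.35% of all genes did so. These were also the 2 genes with p under 0.05 in the methods' t-test (6.17% of all genes), and 0 remained after Benjamini-Hochberg adjustment. Counted by probe set, 15 of 16 had a lower value (background 50.0%), and 0 of 16 passed the adjusted threshold in limma (background 0.0555%). In 6 of 16 every A/J-12SM array lay below every A/J array (background 5.83% in this direction). At an unadjusted p under 0.05 in limma, 7 of 16 were lower (background 3.01% in this direction). Probe sets of a gene read the same RNA and are not independent of each other. Signals are given as log2 values after quantile normalization, which brings all arrays to 1 distribution.

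The signal levels of the arrays differed between the strains before this step, with trimmed means from 172 to 187 in A/J-12SM and from 202 to 215 in A/J liver and a median log2 difference of -0.22 over all probe sets. As deposited, the median difference of the 8 genes was -0.59, and relative to the median of all genes under the same values it was -0.37, the same as after normalization. Across all probe sets, which are not independent replicates, r between normalized arrays was 0.922 to 0.930 for pairs of different strains and 0.921 to 0.933 for pairs of 1 strain. The median within-strain SD was 0.21 among the brighter probe sets (median brightness or more) and 0.86 among the dimmer ones. The arrays are called biological replicates in their labels, and p-values measure the spread between such pools. Hepatocyte markers were bright in every array, as 11 measured genes with a summed signal of 159663 to 164610 in A/J-12SM and 155917 to 159905 in A/J liver.

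**Figure D1:**
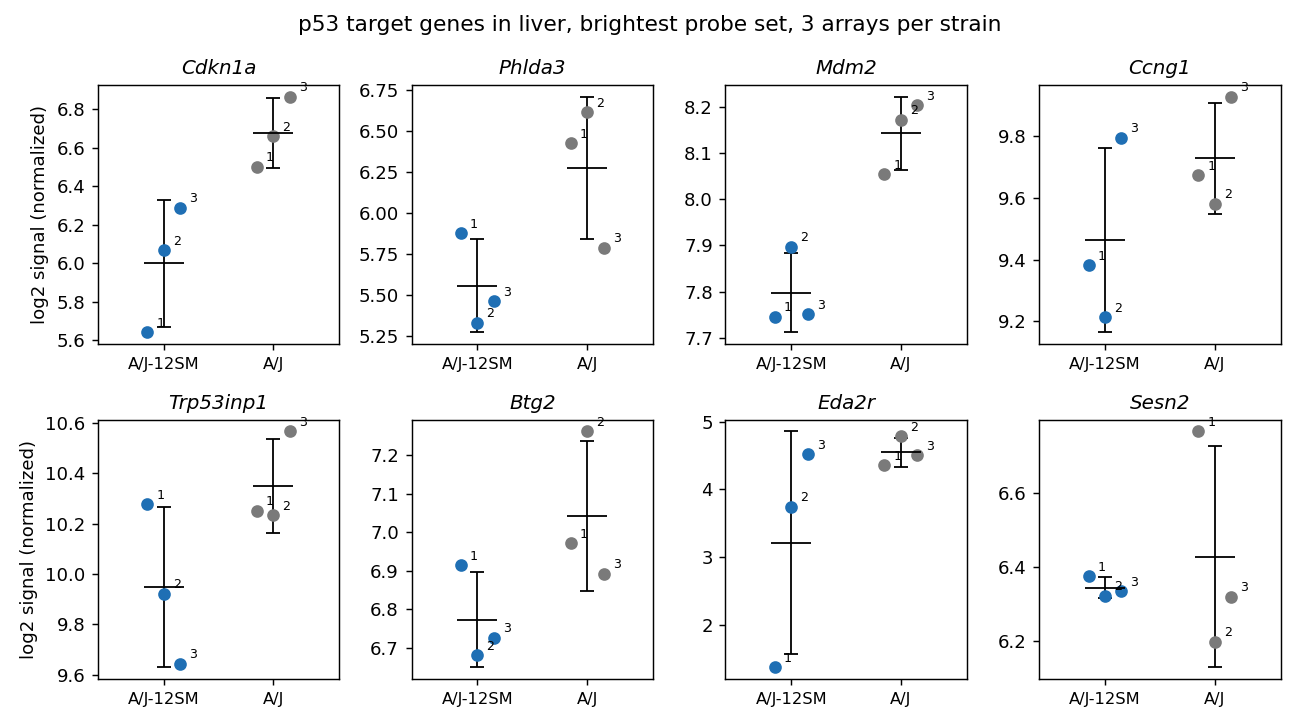
Normalized log2 signal (y axis, a separate scale for each gene) of the brightest probe set of 8 p53 target genes in the A/J-12SM (blue, left) and A/J (grey, right) liver arrays; each numbered point is an array, and the line and bar give the mean and SD (n = 3). The strains do not overlap for Cdkn1a and Mdm2, and the Eda2r mean of A/J-12SM rests on replicate 1 at 1.37.

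The stretch around the annotated start of transcription is shown for the 3 genes in which it holds a p53 half-site, the unit that a pair of p53 molecules binds, to let the letters be read beside the values of these genes. The sequences are from RefSeq (GRCm38.p6), 250 bases before to 50 after the start, written 5′ to 3′ on the strand of the gene, with half-sites in capitals. The consensus half-site reads the same on both strands.
Cdkn1a, chr17:29090729-29091028, plus strand: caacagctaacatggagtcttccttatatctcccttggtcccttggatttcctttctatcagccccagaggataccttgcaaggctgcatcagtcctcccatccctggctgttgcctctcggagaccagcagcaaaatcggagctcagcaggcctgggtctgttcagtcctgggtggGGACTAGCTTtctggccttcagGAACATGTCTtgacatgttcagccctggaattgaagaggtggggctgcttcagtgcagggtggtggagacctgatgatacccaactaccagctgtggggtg
Ccng1, chr11:40755237-40755536, minus strand: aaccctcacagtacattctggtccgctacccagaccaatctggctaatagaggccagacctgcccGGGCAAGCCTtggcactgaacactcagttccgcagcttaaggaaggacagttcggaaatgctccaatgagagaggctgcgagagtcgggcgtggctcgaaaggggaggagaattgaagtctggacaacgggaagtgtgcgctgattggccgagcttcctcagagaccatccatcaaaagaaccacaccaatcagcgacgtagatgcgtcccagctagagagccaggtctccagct
Mdm2, chr10:117710709-117711008, minus strand: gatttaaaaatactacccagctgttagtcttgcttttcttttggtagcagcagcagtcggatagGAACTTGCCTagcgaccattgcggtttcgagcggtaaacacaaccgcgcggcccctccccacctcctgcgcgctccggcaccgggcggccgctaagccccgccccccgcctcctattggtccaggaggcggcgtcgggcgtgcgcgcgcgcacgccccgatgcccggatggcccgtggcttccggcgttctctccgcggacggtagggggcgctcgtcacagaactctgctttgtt
In Cdkn1a the half-sites begin 73 and 51 bases before the upstream one of the annotated starts and are separated by 12 bases. They count as a full site here because up to 13 bases were allowed between half-sites. The 10 bases directly after the second half-site differ from the consensus at their first base only and are not marked. The half-site of Ccng1 begins 185 bases and that of Mdm2 186 bases before the start. A half-site was found in 3 of the 7 measured members with an entry in the table (9.55% of all 27025 genes), and a full site in 1 of their 8 windows (0.0731% of all 32851 windows). The windows of Btg2, Phlda3, Eda2r and Sesn2 and the downstream one of Cdkn1a hold none of these letters, which says nothing about sites elsewhere, and Trp53inp1 has no entry. A match of letters is a description of the reference sequence, and binding was not measured in these livers.

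Cdkn1a and Btg2 restrain cell division. Cdkn1a encodes p21, the inhibitor of cyclin-dependent kinases through which p53 stops the cell cycle, and it lies on chromosome 17. Its brighter probe set (1424638_at) had log2 signals of 5.64, 6.07 and 6.29 in A/J-12SM and of 6.50, 6.66 and 6.86 in A/J replicates 1 to 3. All A/J-12SM arrays were thus below all A/J arrays, with replicate 1 the lowest. In the deposited signals, before quantile normalization, the same arrays read 42.9, 67.2 and 70.2 in A/J-12SM and 104, 110 and 120 in A/J liver. The means were 6.0 ± 0.33 in A/J-12SM and 6.68 ± 0.18 in A/J liver (SD, n = 3 each), a difference of -0.68 (SE 0.23, 95% interval -1.19 to -0.16, adjusted p = 0.706 from limma). This corresponds to 0.626 times the A/J signal. The exact two-sided permutation test gave p = 0.1, the smallest that 3 arrays against 3 allow. The other Cdkn1a probe set (1421679_a_at) was dim, at the 16.9th percentile of brightness, with 3.12, 1.80 and 1.27 in A/J-12SM and 4.05, 3.26 and 3.50 in A/J liver. Its difference of -1.54 (SE 0.73, adjusted p = 0.807 from limma) was -0.64 when an offset was added to the signals, and its size is therefore uncertain.

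Btg2, on chromosome 1, encodes an antiproliferative protein that helps to shorten mRNA tails. By the brighter probe set (1416250_at) it had 6.91, 6.68 and 6.73 in A/J-12SM and 6.97, 7.26 and 6.89 in A/J liver, so that the highest A/J-12SM array passed the lowest A/J array. The difference was -0.27 (SE 0.17, 95% interval -0.65 to 0.11, adjusted p = 0.844 from limma). The second Btg2 probe set (1448272_at) pointed the other way and was the only one of 16 to do so, with 6.80, 6.83 and 6.15 in A/J-12SM and 6.41, 6.28 and 6.72 in A/J liver. Its difference of 0.12 (SE 0.24) had an interval of -0.41 to 0.65 and turned to -0.13 with the values as deposited. The Btg2 probe sets therefore do not settle a direction for this gene.

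Mdm2 and Ccng1 act back on p53. Mdm2, on chromosome 10, encodes the ubiquitin ligase that marks p53 for degradation. Its brightest probe set (1423605_a_at) had 7.75, 7.90 and 7.75 in A/J-12SM and 8.05, 8.17 and 8.20 in A/J liver. The strains did not overlap (exact two-sided permutation test, p = 0.1), and the means were 7.80 ± 0.09 in A/J-12SM and 8.14 ± 0.08 in A/J liver (SD, n = 3 each). The difference was -0.35 (SE 0.12, 95% interval -0.61 to -0.09, adjusted p = 0.691 from limma), or 0.787 times the A/J signal. It stayed between -0.40 and -0.31 when any 1 array was left out. The second Mdm2 probe set (1427718_a_at) had 7.68, 7.49 and 7.05 in A/J-12SM and 7.74, 7.58 and 7.75 in A/J liver, a difference of -0.28 (SE 0.17) that was -0.10 without A/J-12SM replicate 3. The third (1457929_at) was dim and its strains overlapped, with a difference of -0.61 (SE 0.64).

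Ccng1, on chromosome 11, encodes cyclin G1, which recruits a phosphatase to Mdm2 and so raises its activity. Its 3 probe sets lay between the 88.2nd and the 92.1st percentile of brightness, and all had lower values in A/J-12SM liver. Probe set 1450017_at had 8.75, 8.66 and 8.52 in A/J-12SM and 9.04, 9.09 and 9.25 in A/J liver. The strains were apart by more than the range within either, with means of 8.64 ± 0.12 in A/J-12SM and 9.13 ± 0.11 in A/J liver (SD, n = 3 each). The difference of -0.48 (SE 0.11, 95% interval -0.72 to -0.24) had the smallest adjusted p of the 16 member probe sets (0.392 from limma). Over the alternatives run, this adjusted p lay between 0.0634, with the values as deposited, and 0.916, with median centring. In the deposited signals the readings were 388, 391 and 338 in A/J-12SM and 587, 568 and 663 in A/J liver. Probe set 1450016_at gave the same picture, with 9.16, 9.09 and 8.89 in A/J-12SM and 9.38, 9.46 and 9.58 in A/J liver and a difference of -0.43 (SE 0.11, adjusted p = 0.469 from limma). The brightest Ccng1 probe set (1420827_a_at) had 9.38, 9.21 and 9.80 in A/J-12SM and 9.67, 9.58 and 9.93 in A/J liver. Here A/J-12SM replicate 3 lay within the A/J range, and the difference was -0.26 (SE 0.15, 95% interval -0.61 to 0.08, adjusted p = 0.833 from limma), or -0.43 without that array and -0.14 without A/J-12SM replicate 2. The gene is thus represented in the counts by the probe set with the smallest of its 3 differences.

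**Figure D2:**
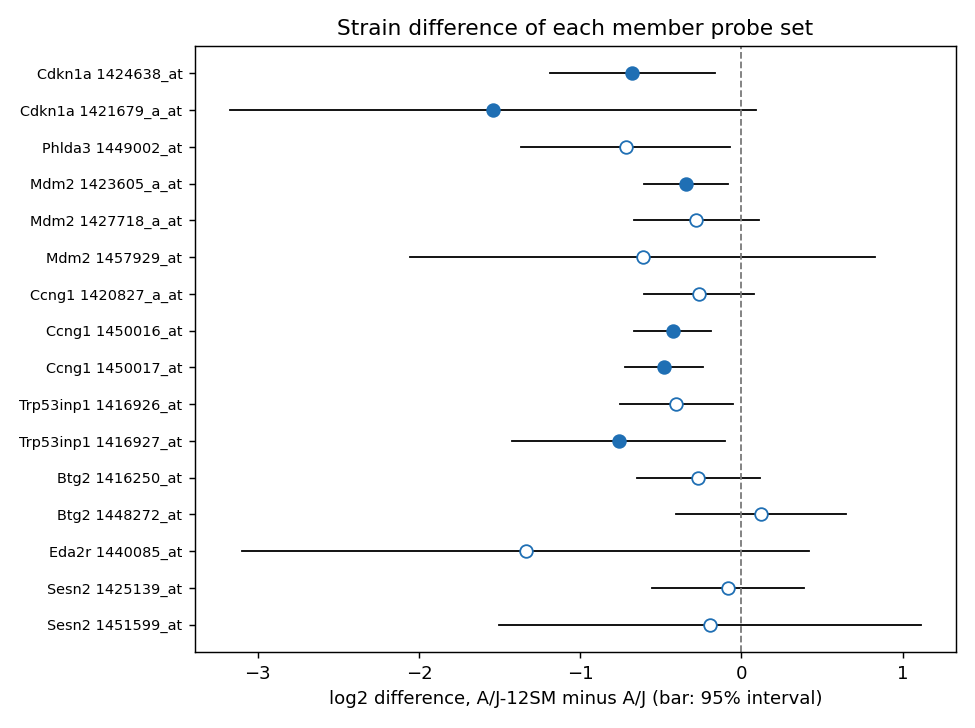
Log2 difference (x axis, A/J-12SM minus A/J) of each of the 16 probe sets of p53 target genes (y axis) with its 95% interval from limma; filled points are the 6 probe sets in which all A/J-12SM arrays lay below all A/J arrays. All points but that of Btg2 1448272_at lie below 0, and the widest intervals belong to Eda2r and the dim Cdkn1a probe set.

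Phlda3, Eda2r, Trp53inp1 and Sesn2 act in survival and stress signalling. Phlda3, on chromosome 1, encodes a protein that blocks Akt by competing for membrane lipids. Its single probe set had 5.88, 5.33 and 5.46 in A/J-12SM and 6.43, 6.61 and 5.79 in A/J liver. A/J replicate 3 lay below A/J-12SM replicate 1, so that the strains overlapped by these arrays only. The difference was -0.72 (SE 0.29, 95% interval -1.37 to -0.07, adjusted p = 0.783 from limma), or 0.608 times the A/J signal, and lay between -0.95 and -0.55 with any 1 array left out.

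Eda2r, an X-linked gene, encodes a receptor of the tumour necrosis factor family for the ligand ectodysplasin A2. Its single probe set was dim, at the 29.6th percentile, with 1.37, 3.75 and 4.53 in A/J-12SM and 4.36, 4.79 and 4.51 in A/J liver. The A/J-12SM arrays were spread over more than 3 log2 units (SD 1.64), and the highest of them lay within the A/J range. The difference of -1.34 (SE 0.79, 95% interval -3.10 to 0.42, adjusted p = 0.833 from limma) was the largest of the 8 genes but was -0.42 without A/J-12SM replicate 1 and -0.67 with an offset added.

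Trp53inp1, on chromosome 4, encodes a stress protein that promotes the activity of p53 and takes part in autophagy. By its brighter probe set (1416926_at) it had 10.28, 9.92 and 9.64 in A/J-12SM and 10.25, 10.23 and 10.57 in A/J liver. Replicate 1 of A/J-12SM was within the A/J range and the other 2 were below it, with a difference of -0.40 (SE 0.16, 95% interval -0.75 to -0.05, adjusted p = 0.765 from limma). The second probe set (1416927_at) had 7.57, 7.47 and 6.28 in A/J-12SM and 7.86, 7.79 and 7.96 in A/J liver. Its strains did not overlap, and its difference of -0.76 (SE 0.30, adjusted p = 0.763 from limma) was -0.35 without A/J-12SM replicate 3. Without the same array the brighter probe set gave -0.25.

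Sesn2, also on chromosome 4, encodes sestrin 2, which senses leucine and holds back the growth kinase complex mTORC1. It was the member with the least difference, with 6.37, 6.32 and 6.33 in A/J-12SM and 6.77, 6.20 and 6.32 in A/J liver by its brighter probe set (1425139_at). All 3 A/J-12SM arrays lay within the A/J range, and the difference was -0.08 (SE 0.21, 95% interval -0.56 to 0.39, adjusted p = 0.967 from limma). It turned to 0.085 without A/J replicate 1. The second Sesn2 probe set (1451599_at) had 5.49, 6.41 and 4.42 in A/J-12SM and 4.66, 6.66 and 5.59 in A/J liver, a wide spread in both strains, and gave -0.19 (SE 0.58).

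**Figure D3:**
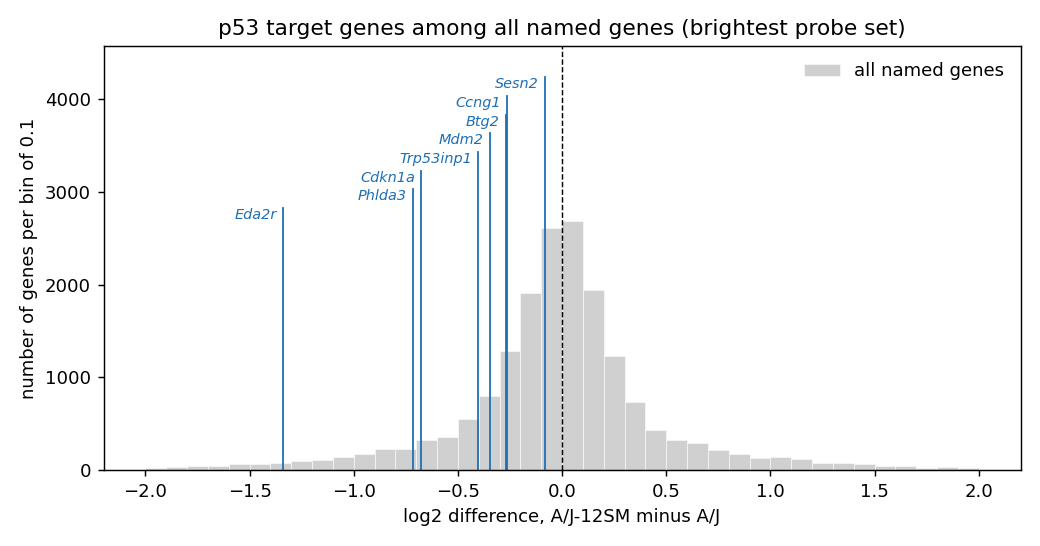
Number of named genes (y axis) by their log2 difference (x axis, A/J-12SM minus A/J, bins of 0.1, shown from -2 to 2), each by its brightest probe set (grey); blue lines mark the 8 p53 target genes. All 8 lie left of 0, from Eda2r at -1.34 to Sesn2 at -0.08, within the range that many other genes span.

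Averaged over the 8 genes, each centred on its own mean, the arrays read -0.45, -0.25 and -0.08 in A/J-12SM and 0.23, 0.29 and 0.24 in A/J liver. Much of the low value of A/J-12SM replicate 1 came from Eda2r. Without that gene, which was left out after its values were seen, the arrays read -0.15, -0.26 and -0.18 in A/J-12SM and 0.20, 0.21 and 0.19 in A/J liver. The 3 arrays of each strain then lay closer together than the strains did. With all 8 genes this did not hold for A/J-12SM, whose arrays ran from -0.45 to -0.08 beside a lowest A/J array of 0.23. These averages are descriptions, as the genes were chosen as a group with earlier results of these data known. By the brightest probe set of each of the 8 genes, A/J-12SM replicates 1 and 2 were the lowest array in 3 each. A/J-12SM replicate 3 and A/J replicate 2 were the lowest in 1 each. Among the 16 probe sets, A/J replicate 2 was the lowest in 1 and A/J-12SM replicates 1 and 2 in 3 each. A/J-12SM replicate 3 was the lowest of all arrays in 9. In the same array the actin probe sets at the 5′ end read 0.423 times those at the 3′ end, a measure of RNA integrity, against 0.553 and 0.561 in the other A/J-12SM arrays and 0.571 to 0.590 in the A/J arrays. The same ratio for Gapdh did not set this array apart, at 1.53 against 1.48 and 1.55 in the other A/J-12SM arrays and 1.45 to 1.54 in the A/J arrays. Without this array the median of the 8 genes was -0.37 and all 8 still had lower values, although the differences of Trp53inp1 and of the second Mdm2 probe set shrank as given above. The part of RNA integrity in these values was not tested.

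A further list of 34 p53 targets, drawn up apart from the 8 genes, was less uniform. Of its 33 measured genes 20 had lower and 13 higher values in A/J-12SM liver, with a median of -0.12, and 0 passed an adjusted p under 0.05 in limma. At an unadjusted p under 0.05 in limma there were 4 lower (3.40% of all genes) and 1 higher (3.39% of all genes). The strains did not overlap in 7 lower genes (6.35% of all genes) and 1 higher gene (5.97% of all genes). Aen, a nuclease that p53 induces in cell death, had 7.22, 7.35 and 7.21 in A/J-12SM and 7.71, 7.89 and 7.86 in A/J liver (difference -0.56, SE 0.13, adjusted p = 0.413 from limma). Plk3, a stress-responsive kinase, was the higher one, with 7.49, 7.43 and 6.90 in A/J-12SM and 6.69, 6.42 and 6.13 in A/J liver (difference 0.86, SE 0.22, adjusted p = 0.485 from limma). Perp, a membrane protein of cell junctions and cell death, and Ephx1, the microsomal epoxide hydrolase, were chosen after their values were seen and had differences of -0.36 (SE 0.08) and -0.40 (SE 0.10) without overlap of the strains. Ei24, the other lower gene at this level, also chosen after its values were seen, had -0.30 (SE 0.10).

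Genes that regulate p53, listed with some related genes such as Trp63, Trp73 and Trp53inp2, had no common direction. Of the 19 measured, 8 had lower and 11 higher values, with a median of 0.02. Only Trp53inp2 had an unadjusted p under 0.05 in limma, on the lower side (3.40% of all genes). Mdm4, the partner of Mdm2 that also inhibits p53, was chosen after its values were seen. Its brightest probe set had a difference of 0.10 (SE 0.20), and its others had -1.03 (SE 0.40), -0.28 (SE 0.24) and -0.18 (SE 0.45). Only the Mdm4 probe set at -1.03, below the median brightness, had no overlap of the strains (adjusted p = 0.764 from limma). Of all probe sets 5.83% were lower without overlap. By the rule for named genes, Trp53inp2, an autophagy protein related to Trp53inp1, had -0.30 (SE 0.12, adjusted p = 0.776 from limma), and Trp53bp1, which binds broken DNA, had 0.29 (SE 0.26).

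Cell cycle genes, which p21 represses through the DREAM complex, also had mostly lower values, although most were dim. Of 19 measured, 15 had lower and 4 higher values, 14 were below the median brightness, and the median of -0.48 was -0.18 with an offset added and between -0.27 and -0.16 without A/J-12SM replicate 1, A/J-12SM replicate 2, A/J replicate 1 or A/J replicate 3. None passed an adjusted p under 0.05 in limma (4 lower ones had an unadjusted p under 0.05). Of all genes 50.9% had a lower value and 3.40% were lower at that unadjusted level. Cdc20, an activator of the anaphase-promoting complex, had -0.54 (SE 0.23), and Foxm1, a transcription factor of mitotic genes, had 0.72 (SE 0.40).

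The signals that Sesn2 and Btg2 share with other pathways were examined through lists of their own. Of 18 genes of the ATF4 and CHOP stress response, 10 had lower and 8 higher values (median -0.12). In limma 0 passed an adjusted p under 0.05, and 1 was higher at an unadjusted p under 0.05 (3.39% of all genes). Chac1, which breaks down glutathione, had 0.62 (SE 0.19, adjusted p = 0.622 from limma). Ppp1r15a, a phosphatase subunit that restores translation, had 0.43 (SE 0.20). Both were named for the largest differences among the bright genes of this list. Of 14 immediate early genes 5 had lower and 9 higher values (median 0.14, 0 past the adjusted threshold). In limma 3 of them were higher at an unadjusted p under 0.05, as were 3.39% of all genes. Egr1, a transcription factor, had 7.60, 9.96 and 10.16 in A/J-12SM and 7.61, 8.04 and 7.48 in A/J liver (difference 1.53, SE 0.55, adjusted p = 0.734 from limma). Without A/J-12SM replicate 1, whose value lay within the A/J range, Egr1 was called, with a difference of 2.35 (adjusted p = 0.00531 from limma). In that run 16 of all 45037 probe sets were called, and under no other alternative was Egr1 called. Fos, another early transcription factor, had 0.64 (SE 0.27), and it lies on chromosome 12, which the strains do not share.

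**Figure D4:**
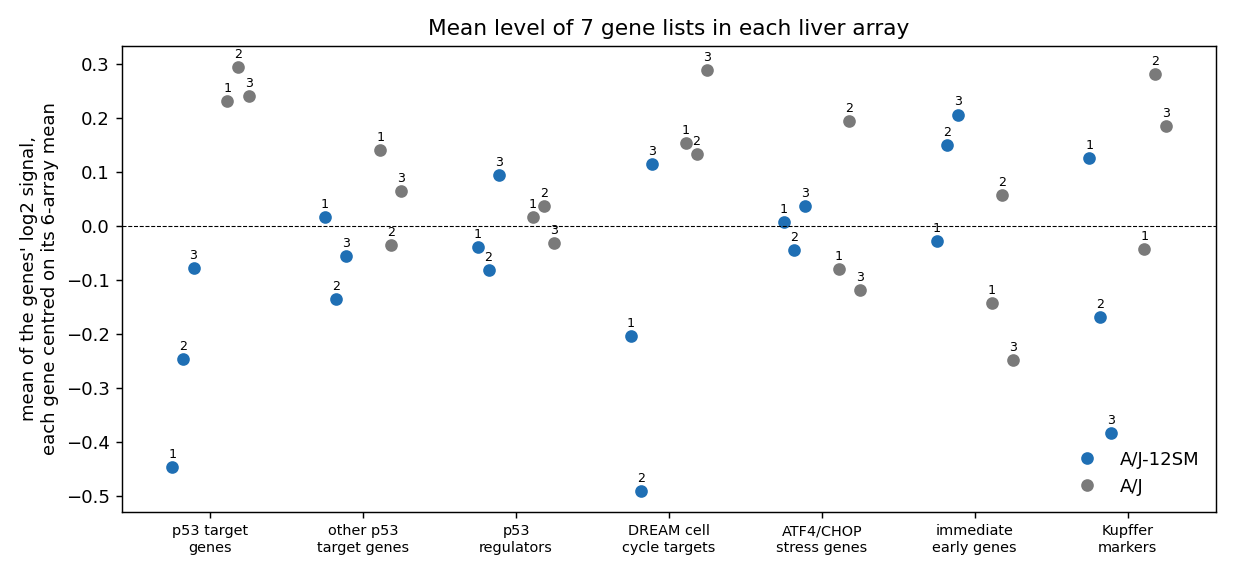
Mean over the genes of each of 7 lists (x axis) of the log2 signal centred on each gene's mean over 6 arrays (y axis), for A/J-12SM (blue, left) and A/J arrays (grey, right); points are arrays with their replicate number. The p53 target genes lie between -0.45 and -0.08 in A/J-12SM and between 0.23 and 0.29 in A/J liver. The value of A/J-12SM replicate 1 rests largely on Eda2r. Of the other lists shown, only the DREAM targets also have no overlap, at -0.49 to 0.11 in A/J-12SM and 0.13 to 0.29 in A/J liver. In the rest the strains overlap, and the list of p53 regulators also holds related genes.

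Macrophage markers also had lower values in A/J-12SM liver. All 12 measured Kupffer cell and macrophage markers did so (50.9% of all genes), with a median of -0.27. Of these markers 2 had an unadjusted p under 0.05 in limma (3.40% of all genes in this direction), and 0 passed after adjustment. None was at 0, and their summed signal ranged from 6894 to 8443 in A/J-12SM and from 7783 to 9842 in A/J liver. Their array means, centred in the same way, were 0.13, -0.17 and -0.38 in A/J-12SM and -0.04, 0.28 and 0.19 in A/J replicates 1 to 3, so that the strains overlapped. Beside them, the 8 p53 target genes read -0.45, -0.25 and -0.08 in A/J-12SM and 0.23, 0.29 and 0.24 in A/J replicates 1 to 3. Cd5l, a protein secreted by macrophages, had -0.43 (SE 0.11), and Marco, a scavenger receptor, had -0.66 (SE 0.42). Their part in the result for the p53 target genes was not tested, and in a whole tissue fewer cells of a type and less RNA per cell cannot be told apart. Stellate cell and fibroblast markers went mostly the other way, with 1 of 10 lower and 9 higher in A/J-12SM liver (median 0.04). Less even were the rest, with 4 of 10 endothelial, 4 of 6 cholangiocyte, 4 of 8 lymphocyte and 5 of 11 hepatocyte markers lower. Lyve1, an endothelial receptor, had -0.45 (SE 0.21), and Fcgr2b, an endothelial Fc receptor, 0.37 (SE 0.09). Reln and Lum of stellate cells and fibroblasts had 0.46 (SE 0.13) and 0.64 (SE 0.23). Of the hepatocyte markers, Cps1, a urea cycle enzyme, had 0.28 (SE 0.09), and Ass1 had 0.13 (SE 0.21) with overlap of the strains. Epcam and Tspan8 of bile duct cells had -0.60 (SE 0.43) and 0.02 (SE 0.30), and Cd8a and Ms4a1 of lymphocytes -0.36 (SE 0.67) and 0.24 (SE 0.33).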

How the data were processed

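Liver RNA was measured on 6 one-colour Affymetrix arrays, 3 of A/J-12SM and 3 of A/J mice, grouped by their labels. The authors deposited intensity values on a linear scale, 1 per probe set and array, and the submitters' processing notes name MAS5. The MAS5 version is not given in the sources used here, nor is its scaling target. Log2 values of 45037 probe sets (64 control probe sets left out) were quantile normalized with limma 3.58.1 in R 4.3.3, since array levels differed between the strains, and fitted with lmFit and eBayes (trend of the prior variance on brightness, no covariate). The Benjamini-Hochberg adjustment ran over every probe set tested. Gene names came from the platform annotation (34945 probe sets with 1 gene, 932 with several, 9160 with none), updated through a GRCm38.p6 gene table for 34741. The brightest probe set by its mean over 6 arrays stood for each of 18193 genes. Named from other lists were the called members or, where none was called, the 2 bright ones with the largest difference. The members and lists were chosen with earlier results of these data known. Alternatives were the values as deposited, median centring, a common mean after trimming 2% at each end, an added offset of 9.20 (the 20th percentile of signals), a floor at the 40th percentile of brightness, 1 prior variance, a replicate block, the methods' t-test, the mean over a gene's probe sets, and each array left out in turn. The fit was tested on simulated data, in which it missed most differences of the size seen in most members, above all among dim probe sets, and made more false calls than the nominal share. The number of arrays and the wider spread of dim probe sets limit the precision. Python 3.11.15 with matplotlib 3.10.9 drew the figures and searched the promoter windows.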

Additional observations from a re-analysis of the deposited data

How the results depend on the processing

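No member gene was called under any alternative run (0 of 8, or 0 of 7 where dim probe sets were left out and Eda2r with them). At an unadjusted p under 0.05 there were 4 genes by limma and 2 by the methods' t-test, with 0 by that test after Benjamini-Hochberg adjustment. The median difference of the 8 genes was -0.37, moved to -0.59 with the values as deposited, where all genes had -0.22, and lay between -0.42 and -0.33 with 1 array left out. The number of lower genes was 7 or 8 with 1 array left out, the 7 being without A/J replicate 1, where Sesn2 turned. The differences of single probe sets that turned were Btg2 1448272_at with the values as deposited (-0.13, against 0.12) and both Sesn2 probe sets with 1 array left out, from -0.20 to 0.085 for 1425139_at and from -0.68 to 0.32 for 1451599_at. With the replicate block, the median was again -0.37 and no member was called, while calls over all probe sets were 28 against 25. Same-numbered arrays of the strains did not deviate together (r = -0.01, 0.01 and 0.03), so the numbers do not pair them. The number of arrays and the dimness of Eda2r and of 1 probe set each of Cdkn1a and Mdm2 limit what could be detected.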
